A study of Mus musculus with 9 samples.

Results

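The 10 genes described here encode parts of the inflammasome and cytokines of the interleukin-1 family: the sensors Nlrp1a, Nlrp3, Aim2 and Nlrc3, the adaptor Pycard, the protease Casp1, the pore protein Gsdmd, and the cytokines Il1a, Il1b and Il18. They were taken by name from a fixed list, matched by symbol to the GENCODE M21 annotation of the mouse genome GRCm38, and are 10 of the 55450 genes counted. Expression was measured by bulk RNA sequencing of manually dissected nigral tissue, 5 weeks after lentiviral transduction, in 3 groups of 3 libraries. The study named 9 of the genes (not Gsdmd) as enriched with synuclein in microglia when it described these same libraries. Their direction of change is therefore not independent evidence, and where it differs from the study's is given below. The lists used below were chosen with earlier results of these data known.

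An inflammasome is a protein complex that assembles in the cytosol of myeloid cells, microglia included, when a sensor detects microbial products, foreign DNA or cell damage. The sensor recruits the adaptor ASC (encoded by Pycard), which gathers pro-caspase-1 so that the protease becomes active. Caspase-1 then cuts the precursors of interleukin-1β and interleukin-18 and opens gasdermin D, whose pores release the cytokines and can kill the cell. Much of this control acts on proteins, so an RNA level describes the supply of the parts and not whether the complex was active.

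The control group (CTR) was transduced with a GFP control vector, which the paper describes as destabilized GFP and the labels as GFP, in CX3CR1-CreERT2 mice. Group CX3 received the Synuclein-expressing vector in mice labelled CX3-Cre, and group DAT received the same kind of vector in mice labelled DAT-Cre. In the first line the tamoxifen-dependent Cre is read from the Cx3cr1 gene of microglia and other myeloid cells, and in the second Cre is read from the dopamine transporter gene of dopaminergic neurons. All vectors carried a FLEX cassette, which Cre inverts into the reading direction, behind the Ef1a promoter, and were injected on both sides of the brain. Mice were male and purchased at 9 weeks in the methods, while the results give 8 weeks at transduction. Tamoxifen was injected for 4 days in CX3CR1-CreERT2 mice and is not stated for DAT-Cre mice. As the paper describes them, CTR and CX3 share the driver line and differ in the vector, while the CTR labels name no driver line. Markers of other tissue also differed between CTR and CX3, as given further on. DAT differs from CTR in driver line, tamoxifen and vector, which cannot be told apart. The number of animals behind a library is not given in the sources used here, and p-values measure the spread between libraries, which may in part be technical.

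Reads counted on genes ranged from 21592817 to 39475428 per library. Levels are given as CPM, counts divided by the TMM-scaled library size and multiplied by 1000000, and 3 counts, taken as the smallest countable signal, equal 0.0779 to 0.151 CPM. This floor covers counting error only. Libraries of 1 group resembled each other (Spearman 0.993 to 0.996 across genes), but DAT library B stood apart, with a squared difference from DAT A and DAT C of 16.5 and 12.1 times that of random counting, against 2.26 between DAT A and DAT C. CX3 library A was apart to a lesser degree, at 4.76 and 6.59 times from CX3 B and CX3 C against 2.54 between those, while pairs of CTR libraries gave 1.45 to 1.80. Without DAT library B, none of the 10 genes changed call in either comparison with DAT, and the widest move of a log2 fold change among them was 0.12 (Nlrp3). Without CX3 library A, Il1a lost its call against CTR, the other 9 kept theirs, and all 10 kept theirs against DAT. The labelled tissue was checked on markers of dopaminergic neurons (Th, Slc6a3, Slc18a2 and Ddc), whose summed level was 396 to 399 CPM in CTR, 571 to 576 in CX3 and 332 to 337 in DAT.

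Upstream sequences are shown for the 5 genes on which the results turn most or which share a motif. They were taken from RefSeq promoter windows of build GRCm38.p6, which matched 9 of the 10 genes in 10 windows. Each run ends 1 base before the RefSeq transcription start. The Aim2 run instead ends before the first GENCODE M21 exon base of the gene inside its window, which leaves off 33 bases. Motif distances are counted from the RefSeq start. Capitals mark matches to any of 6 motifs searched on both strands after the expression results were known: GAGGAAGT (PU.1, a factor that sets up myeloid gene expression), TTGCNNAA (C/EBP), TGANTCA (AP-1), GAAANNGAA (interferon-stimulated response element), TTCNNNGAA (GAS element of STAT factors) and the NF-κB consensus. No matches overlapped each other.
Nlrp1a (chr11:71144705-71144954, minus strand): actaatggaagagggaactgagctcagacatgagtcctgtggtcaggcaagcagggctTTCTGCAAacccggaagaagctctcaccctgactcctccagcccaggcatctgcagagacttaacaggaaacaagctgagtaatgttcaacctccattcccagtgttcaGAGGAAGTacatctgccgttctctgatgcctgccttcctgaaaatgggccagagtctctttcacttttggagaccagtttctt
Aim2 (chr1:173420354-173420570, plus strand): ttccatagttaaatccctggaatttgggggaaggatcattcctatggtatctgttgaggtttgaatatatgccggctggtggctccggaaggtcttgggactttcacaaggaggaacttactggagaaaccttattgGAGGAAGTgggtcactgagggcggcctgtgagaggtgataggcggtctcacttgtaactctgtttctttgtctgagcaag
Pycard (chr7:127993868-127994117, minus strand): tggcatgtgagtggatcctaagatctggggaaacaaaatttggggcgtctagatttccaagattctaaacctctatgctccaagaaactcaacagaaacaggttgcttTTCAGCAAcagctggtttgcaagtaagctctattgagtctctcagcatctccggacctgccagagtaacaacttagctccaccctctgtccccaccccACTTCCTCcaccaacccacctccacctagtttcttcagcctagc
Il1a (chr2:129309973-129310222, minus strand): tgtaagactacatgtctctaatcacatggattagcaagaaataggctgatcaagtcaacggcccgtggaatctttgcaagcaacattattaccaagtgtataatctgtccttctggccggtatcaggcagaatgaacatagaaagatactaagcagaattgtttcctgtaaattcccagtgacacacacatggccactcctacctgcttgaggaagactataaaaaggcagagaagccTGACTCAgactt
Il1b (chr2:129371140-129371389, minus strand): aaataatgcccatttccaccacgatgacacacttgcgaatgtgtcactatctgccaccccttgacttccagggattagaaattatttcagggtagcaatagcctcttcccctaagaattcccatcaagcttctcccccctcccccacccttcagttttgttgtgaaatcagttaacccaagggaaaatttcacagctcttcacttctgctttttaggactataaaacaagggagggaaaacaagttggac
The PU.1 letters were found in 3 of the 10 windows, 83 bases before the start in Nlrp1a, 113 in Aim2 and 44 in Pycard, while 2.44% of all 32851 promoter windows held them. The C/EBP letters stood in the windows of Nlrp1a and Pycard (9.56% of all windows). The AP-1 letters stood 12 bases before the start of Il1a (6.75% of all windows), and the NF-κB consensus was matched in 1 of the 2 windows of Nlrp3 (3.90%). The response element and GAS letters, held by 7.13% and 7.02% of all windows, were matched in none of the 10, which says only that these letters are not in these windows. The printed Pycard window lies within an exon of Gm45205, an antisense transcript on the plus strand, whose bearing on the counts is given further on.

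The genes differed widely in level. Per kilobase of exon, Il18 was the most abundant in control tissue at 24.1 ± 0.331 CPM per kb (SD, n = 3 libraries), followed by Casp1 at 8.18 ± 0.156 and Gsdmd at 5.90 ± 0.309. Aim2 and Pycard came next at 2.45 ± 0.208 and 2.13 ± 0.151 CPM per kb, with ranges that overlapped between libraries. Il1a had 1.42 ± 0.255, Nlrp3 0.866 ± 0.116, Nlrc3 0.637 ± 0.0892, Il1b 0.590 ± 0.00443 and Nlrp1a 0.324 ± 0.0638 CPM per kb, and here too Nlrc3 and Il1b overlapped. In CX3 tissue Il1b, at 1.12 ± 0.103 CPM per kb, stood above both Nlrp3 and Nlrc3 in every library, whereas Casp1 overlapped with Gsdmd and Il1a with Pycard. In DAT tissue Gsdmd stood above Casp1 in every library, while 3 pairs of neighbours overlapped: Pycard with Aim2, Nlrp3 with Nlrc3, and Il1b with Nlrp1a. The level of Pycard leaves out reads shared with its antisense neighbour. In the first and second strand columns Pycard had 17.1 and 15.7 CPM in CTR, where Aim2 had 7.82 and 8.15. The exon lengths of Pycard and Aim2 are 3800 and 3501 bases. As for all genes here, they are the merged exons of all annotated transcripts, so a single transcript can be shorter. The place of Pycard in this order therefore holds only for counts of both strands together and for these merged lengths.

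**Figure D1:**
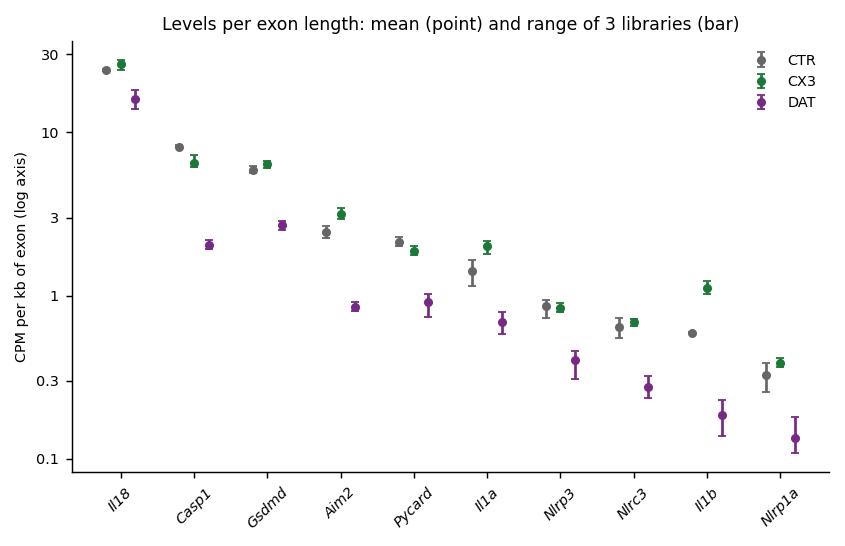
Level per exon length of the 10 genes (CPM per kb of exon, log axis), with the mean as a point and the range of 3 libraries as a bar, ordered by the control level. Il18 lies highest and Nlrp1a lowest in each group, and the DAT points lie below the other groups for every gene.

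In CX3 against CTR, the transcripts of 3 of the 10 genes were higher (Aim2, Il1a and Il1b) and Casp1 was lower, by edgeR's quasi-likelihood test with Benjamini-Hochberg adjustment over 20892 genes at an adjusted p under 0.05. In that comparison 14.0% of all genes tested were called higher and 16.5% lower. The median log2 fold change was 0.12 over the 10 genes and -0.0033 over all genes. Il1b changed most, with a level 1.89 times that of control tissue, while the other calls were changes of less than 1.5-fold. When the test asked for more than a 1.5-fold change, none of the 10 passed (0.828% of all genes passed as higher and 1.70% as lower), and 1 of them had an unadjusted p under 0.05. All CX3 libraries lay above all CTR libraries for the same 3 genes (23.9% of all genes) and below them for Pycard and Casp1 (25.4%).

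In DAT against CTR, all 10 genes were lower, where 27.9% of all genes tested were called lower and 32.0% higher. Log2 fold changes ran from -2.02 (Casp1) to -0.60 (Il18), with a median of -1.25 against -0.0038 over all genes. In 9 of the 10, all but Il18, the decrease exceeded 1.5-fold by test (10.7% of all genes). Every DAT library was below every CTR library for each gene, a separation found in 30.6% of all genes. Without DAT library B the 10 genes were again all lower, by -2.07 to -0.70 on the log2 scale.

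In CX3 against DAT, which share no library, all 10 genes were higher in CX3, where 27.6% of all genes were called higher and 31.3% lower. Log2 fold changes ran from 0.72 (Il18) to 2.53 (Il1b), with a median of 1.45 against 0.010 over all genes. The same 9 genes passed the test against 1.5-fold (9.93% of all genes), and all CX3 libraries were above all DAT libraries for each of the 10 (28.8%). Without DAT library B the range was 0.83 to 2.52. The comparisons with CTR share its 3 libraries, so the contrast of CX3 with DAT is the one that tests the difference between these groups. They received the same kind of vector and differ in driver line and in the tamoxifen stated, which cannot be told apart. Each gene lay further from control in DAT than in CX3. With library size alone in place of TMM, higher calls were 58.9, 37.8 and 66.7% of all calls in CX3 against CTR, DAT against CTR and CX3 against DAT, in place of 45.9, 53.4 and 46.8%, and the counts of the 10 genes called higher and lower stayed at the values given.

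**Figure D2:**
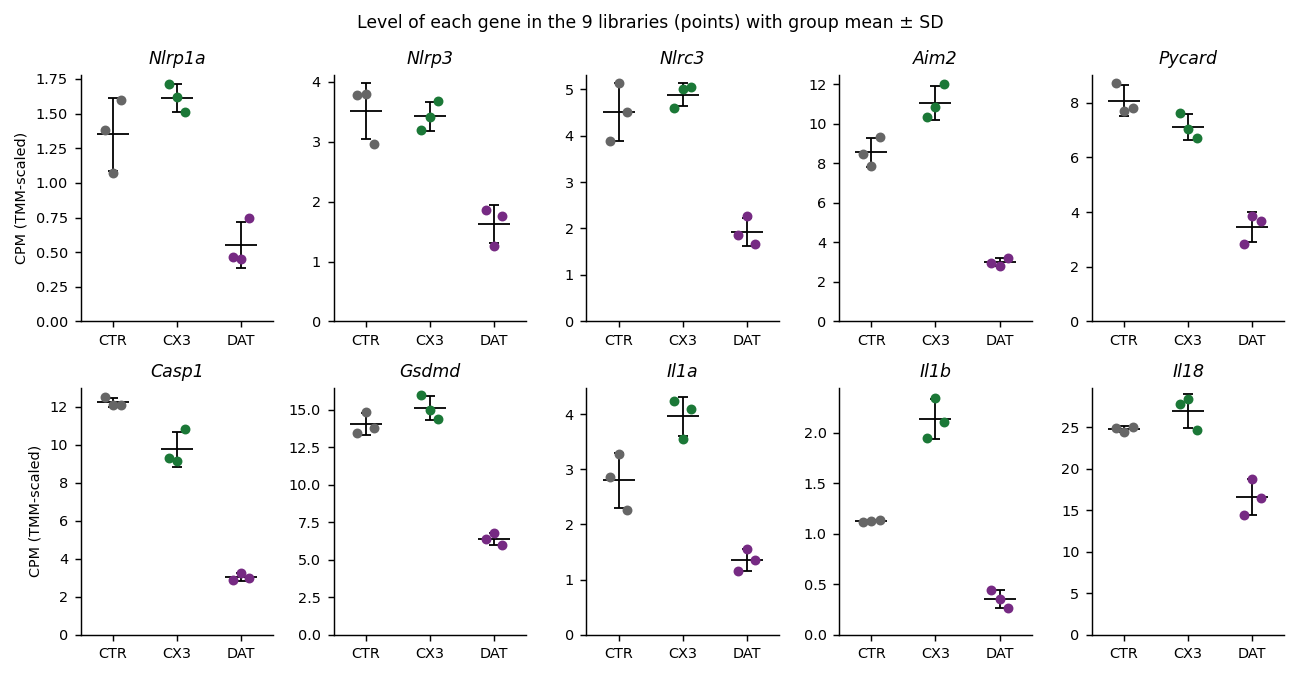
CPM of each gene in the 9 libraries (points, coloured by group) with the group mean and SD (bars, n = 3). The DAT points lie below both other groups in every panel, the CX3 points lie above the CTR points for Aim2, Il1a and Il1b, and they lie below them for Pycard and Casp1.

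Among the sensors, Nlrp1a (ENSMUSG00000069830.10, chr11:71092236-71144704) encodes a rodent NLR protein that can form an inflammasome of its own. Its level was 1.38, 1.07 and 1.60 CPM in CTR libraries A, B and C, 1.71, 1.62 and 1.51 in CX3 and 0.466, 0.453 and 0.746 in DAT. CX3 and CTR libraries overlapped, and the difference had a 95% interval of -0.16 to 0.69 on the log2 scale (adjusted p = 0.340). In DAT the gene was lower by a log2 fold change of -1.29 ± 0.25 (SE; adjusted p = 5.72e-04), and CX3 exceeded DAT by 1.56 ± 0.24. These calls rest on 9 to 66 reads a library, and in counts of the second strand column the DAT decrease missed the threshold (-0.79 ± 0.42, adjusted p = 0.121). Nlrp1a has close relatives in the mouse genome, Nlrp1b among them, and reads that matched more than 1 place were not counted.

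Nlrp3 (ENSMUSG00000032691.14, chr11:59541568-59566956) encodes the sensor that responds to potassium loss, crystals and lysosomal damage. It had 3.78, 3.79 and 2.97 CPM in CTR, 3.19, 3.41 and 3.67 in CX3 and 1.86, 1.26 and 1.76 in DAT. The CX3 values fell within the range of the CTR values, and the difference was -0.04 with an interval of -0.35 to 0.27 (adjusted p = 0.861). DAT tissue held 2.11 times less than CTR (log2 -1.08 ± 0.17, adjusted p = 6.97e-05). CX3 was above DAT by 1.04 ± 0.17.

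Aim2 (ENSMUSG00000037860.15, chr1:173350879-173466040) encodes a sensor of double-stranded DNA in the cytosol and belongs to the interferon-inducible genes. Its libraries read 8.47, 7.88 and 9.33 CPM in CTR, 10.4, 10.8 and 12.03 in CX3 and 2.96, 2.82 and 3.20 in DAT, so that the 3 groups did not overlap. CX3 exceeded CTR by 0.37 ± 0.089 on the log2 scale (adjusted p = 0.00603), an interval of 0.18 to 0.57. The DAT decrease was 2.85-fold (log2 -1.51 ± 0.11, adjusted p = 4.35e-08). Between the vector groups, CX3 held 3.69 times the DAT level, behind only Il1b among the 10.

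Nlrc3 (ENSMUSG00000049871.14, chr16:3945007-3976632) differs from the other sensors in that it is known as a brake on innate signalling and on inflammasome assembly. It had 3.88, 5.14 and 4.50 CPM in CTR, 4.60, 4.996 and 5.05 in CX3 and 1.86, 2.26 and 1.67 in DAT. CX3 and CTR overlapped (log2 0.11, interval -0.16 to 0.38, adjusted p = 0.547). In DAT it was lower by -1.24 ± 0.15, a decrease close to that of Nlrp1a and Nlrp3, whose job is the opposite one.

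Pycard (ENSMUSG00000030793.4, chr7:127989708-127993867) encodes ASC, the adaptor that joins sensor and caspase. Its counts of both strands gave 8.74, 7.69 and 7.80 CPM in CTR, 7.61, 7.05 and 6.69 in CX3 and 2.82, 3.87 and 3.69 in DAT. Each CX3 library was below each CTR library, but the difference of -0.18 ± 0.11 did not pass the test (interval -0.41 to 0.05, adjusted p = 0.225). The DAT decrease did, at -1.25 ± 0.12 (adjusted p = 8.50e-07), and CX3 exceeded DAT 2.10-fold.

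Casp1 (ENSMUSG00000025888.5, chr9:5298517-5307265) encodes the protease of the complex and was lower in CX3 tissue, where Il1a and Il1b were higher. It read 12.5, 12.1 and 12.1 CPM in CTR, 9.30, 9.13 and 10.8 in CX3 and 2.88, 3.27 and 2.98 in DAT, again with no overlap between groups. CX3 was below CTR by -0.33 ± 0.082 (adjusted p = 0.00809). In counts of the first strand column this call was lost (-0.23 ± 0.12, adjusted p = 0.177), and in those of the second it was kept. The decrease in DAT was 4.05-fold (log2 -2.02 ± 0.10, adjusted p = 9.07e-10), the widest among the 10 genes in that comparison.

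Gsdmd (ENSMUSG00000022575.5, chr15:75862327-75867408) encodes gasdermin D, the pore protein that caspase-1 cuts. Its levels were 13.5, 14.9 and 13.8 CPM in CTR, 16.0, 15.0 and 14.4 in CX3 and 6.36, 6.79 and 6.01 in DAT. CX3 and CTR overlapped and differed by 0.11 (interval -0.04 to 0.26, adjusted p = 0.279). DAT was lower than CTR by -1.14 ± 0.081 (adjusted p = 2.94e-08). Gsdmd was the 1 gene of the 10 that the study did not name for these libraries.

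Of the cytokines, Il1b (ENSMUSG00000027398.13, chr2:129364570-129371139) encodes interleukin-1β, whose transcription in myeloid cells is switched on by NF-κB signalling. It had 1.12, 1.13 and 1.13 CPM in CTR, 1.95, 2.34 and 2.11 in CX3 and 0.439, 0.352 and 0.263 in DAT. These values are 34, 41 and 34 reads in CTR, 75, 81 and 81 in CX3 and 16, 7 and 6 in DAT, few enough that counting alone limits the precision in DAT. The 3 groups were separate in every library, with CX3 highest. CX3 was above CTR by 0.92 ± 0.17 on the log2 scale (interval 0.55 to 1.29, adjusted p = 0.00110), and with any 1 library left out the difference lay between 0.85 and 0.98. DAT was below CTR by -1.62 ± 0.25 (adjusted p = 6.21e-05). CX3 exceeded DAT 5.79-fold (log2 2.53 ± 0.22, adjusted p = 2.52e-07).

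Il1a (ENSMUSG00000027399.1, chr2:129299610-129309972) lies near Il1b on chromosome 2 and encodes interleukin-1α, which is active without cleavage by caspase-1. Its levels were 2.86, 3.27 and 2.27 CPM in CTR, 4.23, 3.55 and 4.09 in CX3 and 1.15, 1.56 and 1.36 in DAT, without overlap between groups. CX3 exceeded CTR by 0.49 ± 0.15 (interval 0.17 to 0.81, adjusted p = 0.0223). This call was lost without CTR library A (adjusted p = 0.0614), CTR C (0.108), CX3 A (0.0642) or CX3 C (0.0655), with log2 fold changes of 0.50, 0.36, 0.44 and 0.47. The decrease in DAT was -1.08 ± 0.19 (adjusted p = 1.67e-04).

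Il18 (ENSMUSG00000039217.13, chr9:50554827-50581840), whose product is made as a precursor in many tissues at rest, was the most abundant and the least variable between groups. It read 24.9, 24.4 and 25.1 CPM in CTR, 27.8, 28.4 and 24.7 in CX3 and 14.4, 18.8 and 16.5 in DAT. CX3 and CTR overlapped, with a difference of 0.12 and an interval of -0.05 to 0.29 (adjusted p = 0.278). DAT was lower by -0.60 ± 0.086 (adjusted p = 3.50e-05), and CX3 exceeded DAT by 0.72 ± 0.085. Neither of these passed the test against a 1.5-fold change.

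**Figure D3:**
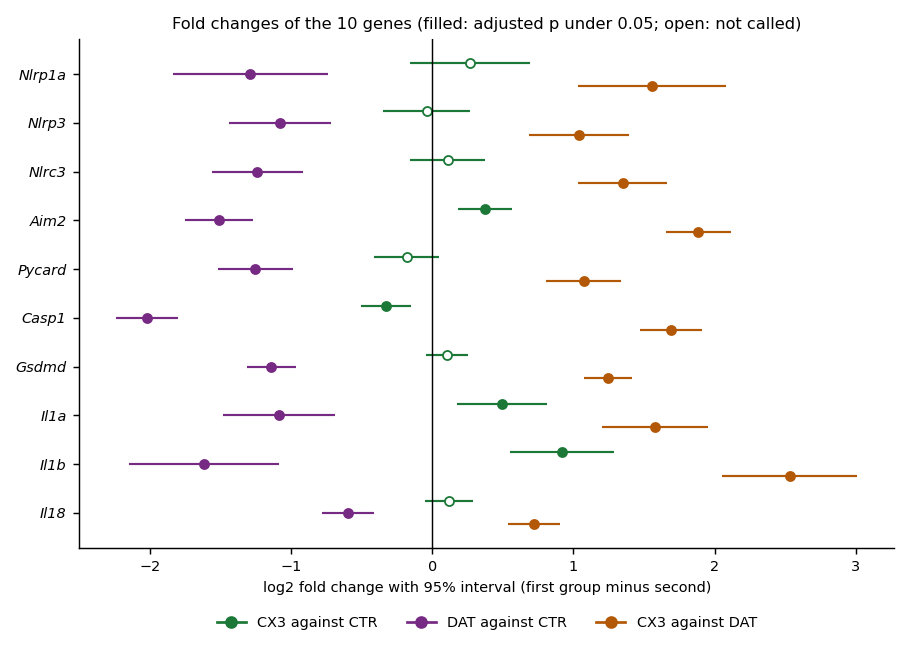
Log2 fold change of each gene with its 95% interval in the 3 comparisons, first group minus second, where filled points passed an adjusted p of 0.05 and open points did not. The intervals of CX3 against CTR lie near 0 for 6 genes, while those of DAT against CTR lie wholly below 0 and those of CX3 against DAT wholly above it.

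Pycard and Il1a needed a check on strand, since both overlap antisense genes and the counting of both strands together drops reads that fall in shared exon bases. Strand-specific columns held nearly equal shares (49.8 to 49.9% in the second), so they do not tell the strands of a gene apart. For Pycard, 12.8% of exon bases also belong to Gm45205. The first strand column gave it 284, 320 and 286 reads in CTR, 320, 252 and 305 in CX3 and 135, 75 and 79 in DAT, where both strands together gave 266, 280 and 234, 293, 244 and 257 and 103, 77 and 84. Over all libraries the counts of both strands were 45.9% of the summed strand columns, so reads that each strand column gave to Pycard were left out when both strands were counted together. The log2 fold change of CX3 against CTR was -0.23 ± 0.08 in the first column (adjusted p = 0.0548) and -0.09 ± 0.11 in the second (0.606), so Pycard passed the test in no column. The DAT decrease was deeper in both columns, at -1.41 ± 0.10 and -1.45 ± 0.14.

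Il1a shares 11.2% of its exon bases with Gm14023, and counts of both strands were 69.6% of the summed strand columns. First strand counts were 61, 84 and 54 in CTR, 113, 95 and 110 in CX3 and 29, 27 and 30 in DAT. The difference of CX3 from CTR was 0.48 ± 0.16 (adjusted p = 0.0399) in the first and 0.44 ± 0.16 (0.0454) in the second column, past the threshold in both. Il1b shares 1.31% with the antisense gene Il1bos, which had 1 to 5 reads a library.

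The tissue held different amounts of marker RNA in the 3 groups, and in bulk samples fewer cells of a type and less RNA per cell cannot be told apart. The 8 microglial markers summed to 756 to 765 CPM in CTR, 525 to 533 in CX3 and 514 to 530.1 in DAT, sums of 69.6% and 68.5% of the CTR mean in the vector groups. Of these markers 5 were called lower in CX3 and 7 in DAT (against 16.5% and 27.9% of all genes), but single markers moved differently. Cx3cr1 was 2.29-fold lower in CX3 and 1.23-fold lower in DAT, whereas Aif1 differed by -0.02 on the log2 scale in CX3 (adjusted p = 0.855) and was 2.71-fold lower in DAT. In CX3 against DAT, 5 of the 8 were called higher and 2 lower (against 27.6% and 31.3% of all genes). Relative to the microglial sum, Il1b was 0.148 ± 5.89e-04% in CTR, 0.404 ± 0.0367% in CX3 and 0.0674 ± 0.0159% in DAT, and Casp1 1.61 ± 0.0381%, 1.85 ± 0.165% and 0.586 ± 0.0471%. With libraries scaled to that sum in place of all genes, a choice made after the data were seen, the 10 genes were all called higher in CX3 than in CTR, but so were 72.7% of all genes, whose median moved to 0.52. Under that scaling 9 genes, all but Il18, were still called lower in DAT, with 10.8% of all genes called lower and a median over all genes of 0.54.

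Markers of blood-borne leukocytes also differed between the groups. The 6 T cell markers summed to 51.2 to 52.0 CPM in CTR, 42.1 to 44.2 in CX3 and 12.8 to 15.0 in DAT. The 3 NK cell markers summed to 2.13 to 2.63, 1.98 to 2.47 and 0.263 to 0.631 CPM. The monocyte and neutrophil list summed to 51.8 to 52.2, 25.8 to 26.7 and 6.94 to 7.44 CPM, with the neutrophil gene Ly6g at 0 in every DAT library. Ly6c2 made up most of that list in CTR (39.2 ± 0.935 CPM, and 8.70 ± 0.564 in CX3), and against its direction Ccr2, the chemokine receptor of inflammatory monocytes, was 2.56-fold higher in CX3 than in CTR (adjusted p = 9.13e-07) and 1.76-fold lower in DAT. B and plasma cell markers read 306 to 324, 76.0 to 80.3 and 14.8 to 18.3 CPM. Dendritic cell markers summed to 29.1 to 30.9, 33.0 to 34.5 and 27.2 to 28.9 CPM, most of it Flt3, which passed the test in no comparison. Xcr1, a marker of cross-presenting dendritic cells, was 4.10-fold higher in CX3 than in CTR (adjusted p = 1.02e-05) and 3.18-fold lower in DAT, and Ccl22, a chemokine of mature dendritic cells, was 1.34-fold higher (adjusted p = 0.0429, and 0.0793 without CX3 library A) and 2.03-fold lower. Of 5 monocyte and neutrophil markers tested, 1 was called higher and 3 lower in CX3 against CTR, S100a8 and S100a9 among the lower. Of 4 dendritic cell markers tested, 2 were called higher and 0 lower. Of all genes, 14.0% were called higher and 16.5% lower. In DAT against CTR, 5 and 2 of these markers were called lower (27.9% of all genes). Ccr2, Xcr1 and Ccl22 had the call directions of Aim2, Il1a and Il1b, while the other tested markers of their lists did not. Perivascular macrophage markers were highest in DAT (20.7 to 22.1, 21.7 to 23.8 and 27.9 to 29.6). The T, NK, B and plasma, and monocyte and neutrophil sums were 26.8, 16.6, 5.14 and 13.7% of the CTR mean in DAT. In CX3 they were 83.5, 91.6, 25.1 and 50.4%. A link between these sums and the levels of the 10 genes was not tested. Without DAT library B, 52 of 56 markers kept their call in DAT against CTR and 53 in CX3 against DAT.

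Markers of other tissue also differed: the 3 choroid plexus markers summed to 27.4 to 29.9 CPM in CTR, 1443 to 1555 in CX3 and 838 to 1008 in DAT, the 3 pituitary markers to 43.4 to 45.4, 3.12 to 3.45 and 2.67 to 3.59 with Prl at 0 in DAT, and the 3 cerebellar granule neuron markers to 1.15 to 1.48, 2.19 to 2.53 and 12.9 to 17.4. Astrocyte markers were 3358 to 3406, 1706 to 1792 and 1645 to 1686 CPM. Oligodendrocyte markers summed to 15642 to 15700.1, 16863 to 17328 and 11499.7 to 12318 CPM, endothelial markers to 118 to 119, 169 to 179.7 and 224 to 226, and red blood cell markers to 219.7 to 240.1, 86.4 to 99.2 and 171 to 244. Reads outside annotated features made up 7.47 to 7.61% in CTR, 6.39 to 7.73% in CX3 and 4.15 to 4.31% in DAT. The part of cell make-up, dissection and library quality in the results on the 10 genes was not tested.

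**Figure D4:**
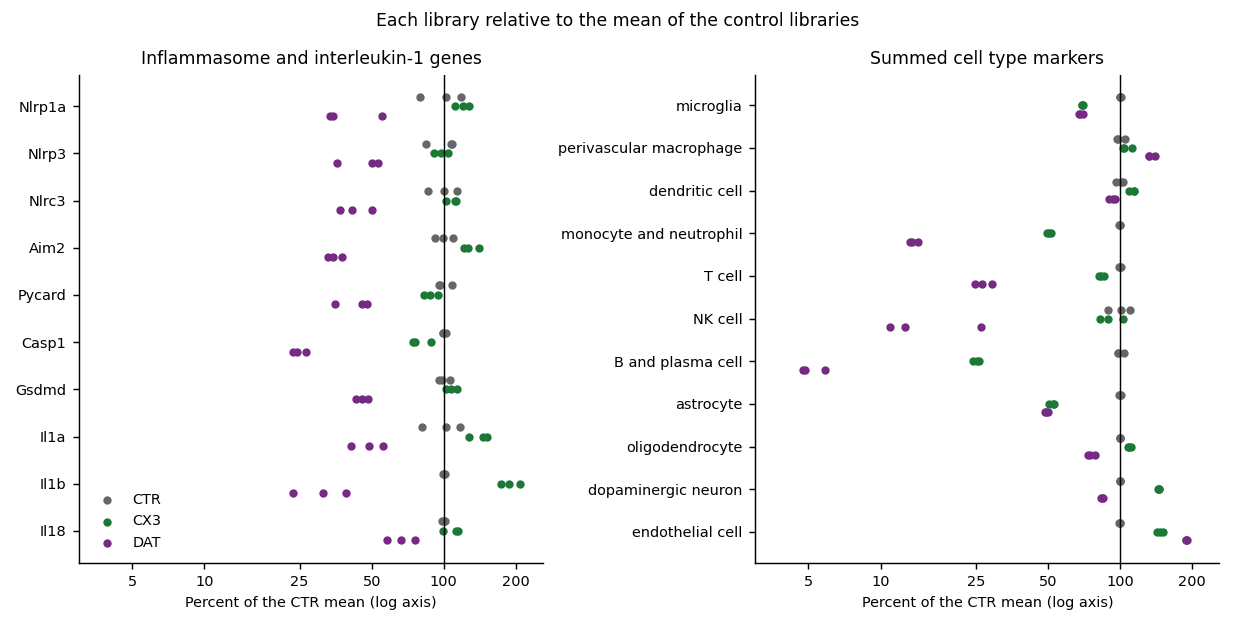
Each library as a percent of the CTR mean (log axis) for the 10 genes (left) and for the summed markers of 11 cell types (right), coloured by group. Microglial markers stand at 69.6 and 68.5% of control in CX3 and DAT, while the DAT points of T cell, NK cell, B and plasma cell, and monocyte and neutrophil markers lie further left than those of CX3.

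Around the 10 genes, 55 others of the inflammasome and interleukin-1 pathways were listed by role, of which 53 were found by symbol and 45 had enough reads to test. In CX3 against CTR, 11 were higher (24.4%, against 14.0% of all genes) and 9 lower (20%, against 16.5%), a total of 20 that dropped to 13 without CTR library B. In DAT against CTR, 7 were higher (15.6%, against 32.0% of all genes) and 30 lower (66.7%, against 27.9%). In CX3 against DAT 31 were higher (68.9%, against 27.6%) and 6 lower (13.3%, against 31.3%). The totals of 37 in the comparisons with DAT were 36 and 39 without DAT library B. Of 32 pathway genes picked by role, 31 and 32 kept their call without that library (the exception was Irak3 in DAT against CTR), and the widest shift in both comparisons was in Il18rap, from -1.82 to -2.17 in DAT against CTR and from 3.16 to 3.52 in CX3 against DAT. Without CX3 library A, 28 of the 32 kept their call against CTR, and Naip2, Il1rap and Irak3 lost theirs while Ninj1 gained one. The median log2 fold changes of the 45 genes were -0.01, -0.48 and 0.47, smaller than those of the 10 genes in both comparisons with DAT.

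Among 12 sensors tested, 4 were higher (33.3%, against 14.0% of all genes) and 1 lower (8.33%, against 16.5%) in CX3 than in CTR. In DAT 8 were lower (66.7%, against 27.9%) and 2 higher (16.7%, against 32.0%). Nlrp1b, a relative of Nlrp1a and the mouse sensor of anthrax lethal factor, had 3.02 ± 0.527 CPM in CTR, 5.68 ± 0.549 in CX3 and 0.800 ± 0.101 in DAT (SD, n = 3). It was higher in CX3 by 0.92 ± 0.14 (adjusted p = 2.14e-04) and lower in DAT by -1.87 ± 0.20, whereas Nlrp1a passed the test in the comparisons with DAT and not in CX3 against CTR. Zbp1, a sensor of nucleic acids in the Z form, had 32.4 ± 0.775, 29.5 ± 0.663 and 5.39 ± 1.06 CPM in CTR, CX3 and DAT, and its DAT decrease (-2.55 ± 0.094, adjusted p = 3.98e-11) was deeper than that of any of the 10 genes. Nlrc5, the transactivator of MHC class I genes, was lower in DAT by -2.22 ± 0.11 and missed the threshold in CX3 (0.24, adjusted p = 0.0585). Naip2 and Naip5, which detect bacterial secretion proteins and flagellin, were lower in DAT by -1.31 and -1.67, and their partner Nlrc4 passed the test in neither comparison with CTR (0.51 in CX3, -0.21 in DAT). Nlrx1, a mitochondrial NLR, went the other way, higher in DAT by 0.59 ± 0.12, and shares 11.9% of its exon bases with the antisense gene Gm10686. The other sensor called higher in DAT was Nlrp6, by 1.08 ± 0.30 (adjusted p = 0.00631). It had 9, 11 and 12 reads in CTR and 21, 15 and 19 in DAT. Mefv, which encodes pyrin, had 7, 7 and 3 reads in CTR, 16, 19 and 9 in CX3 and 1, 0 and 2 in DAT, too few to test. The Naip and Nlrp1 genes are families of near copies, so their counts hold only reads that matched 1 place.

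Of 6 regulators of activation tested, none was higher (against 14.0% of all genes) and 3 were lower (50%, against 16.5%) in CX3. Txnip, a thioredoxin-binding protein that is linked to NLRP3 under oxidative stress, had 62.2 ± 3.08 CPM in CTR, 36.1 ± 1.47 in CX3 and 38.1 ± 0.822 in DAT, lower in both vector groups (-0.79 ± 0.052 and -0.71 ± 0.053), and it shares 19.4% of its exon bases with the antisense gene Gm15441. P2rx7, the ATP receptor that triggers potassium loss, was lower by -0.33 in CX3 and -0.58 in DAT. Nek7, a kinase that NLRP3 needs, had -0.01 in CX3 (adjusted p = 0.871) and was lower in DAT by -0.48, as was Tnfaip3, which encodes the brake A20, by -0.79. Of 5 caspases and pores, none passed the test in CX3 against CTR, where 14.0% of all genes were higher and 16.5% lower. In DAT 3 were lower (60%, against 27.9%). Casp4, the receptor of bacterial lipopolysaccharide in the cytosol, was lower in DAT by -1.98 ± 0.16 and Casp8 by -1.01. Gsdme, another gasdermin, read 33.2 ± 1.14, 32.3 ± 0.878 and 34.3 ± 2.97 CPM and passed in no comparison, unlike Gsdmd.

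Il18bp, whose product binds and neutralizes interleukin-18, read 11.5, 11.9 and 12.4 CPM in CTR, 21.3, 22.2 and 19.6 in CX3 and 3.21, 2.36 and 3.25 in DAT, higher in CX3 by 0.82 ± 0.078 (adjusted p = 3.10e-06) and lower in DAT by -1.99 ± 0.11. Il1rn, the receptor antagonist of interleukin-1, was lower in DAT by -2.45 ± 0.24 and differed in CX3 by 0.13 (adjusted p = 0.596). So the antagonist of interleukin-18 was higher in CX3 while Il18 itself did not pass the test, and Il1b was higher while its antagonist did not pass. Il33, an alarmin that astrocytes and oligodendrocytes supply, was lower in both groups (-0.38 in CX3 and -0.72 in DAT). The interleukin-36 genes and Il1f10 had at most 2 reads in any library.

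Of 9 receptors tested, 4 were higher (44.4%, against 14.0% of all genes) and 1 lower (11.1%, against 16.5%) in CX3. In DAT 5 were lower (55.6%, against 27.9%). Il18rap, the accessory chain of the interleukin-18 receptor, read 2.20, 1.92 and 1.87 CPM in CTR, 4.96, 4.85 and 5.36 in CX3 and 0.356, 0.905 and 0.570 in DAT, higher in CX3 by 1.34 ± 0.16 (adjusted p = 2.83e-05). Il18r1, the ligand-binding chain, differed by 0.05 in CX3 (adjusted p = 0.800) but was lower in DAT by -3.03 ± 0.19, deeper than any of the 10 genes. Both chains are carried by T and NK cells. The marker sums of these cells were 26.8 and 16.6% of the CTR mean in DAT, and 83.5 and 91.6% in CX3, where Il18rap was higher. A link with the receptor levels was not tested. Il1rl1, which encodes the interleukin-33 receptor ST2, had 27, 18 and 18 reads in CTR, 80, 74 and 80 in CX3 and 18, 17 and 18 in DAT, higher in CX3 by 1.68 ± 0.23 (adjusted p = 8.57e-05). The signalling receptor Il1r1 differed by 0.12 in CX3 (adjusted p = 0.215) and was lower in DAT by -0.28, and the inhibitory receptor Sigirr was higher in CX3 by 0.49.

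Of 10 downstream signalling genes tested, 2 were higher (20%, against 14.0% of all genes) and 3 lower (30%, against 16.5%) in CX3. In DAT 3 were higher (30%, near the 32.0% of all genes) and 7 lower (70%, against 27.9%). Their log2 fold changes stayed between -0.59 and 0.59 in the DAT comparison. Myd88, the adaptor of interleukin-1 and Toll-like receptors, differed by -0.17 in CX3 (adjusted p = 0.143) and was lower in DAT by -0.57 ± 0.091. It shares 11.3% of its exon bases with the antisense gene Acaa1a. The kinases and ligase Irak1, Irak2 and Traf6 had log2 fold changes near each other in both vector groups, at 0.20, -0.21 and -0.20 in CX3 and 0.19, -0.23 and -0.20 in DAT, and CX3 against DAT gave 0.01, 0.02 and 0.00 with intervals of -0.10 to 0.12, -0.12 to 0.16 and -0.11 to 0.11.

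**Figure D5:**
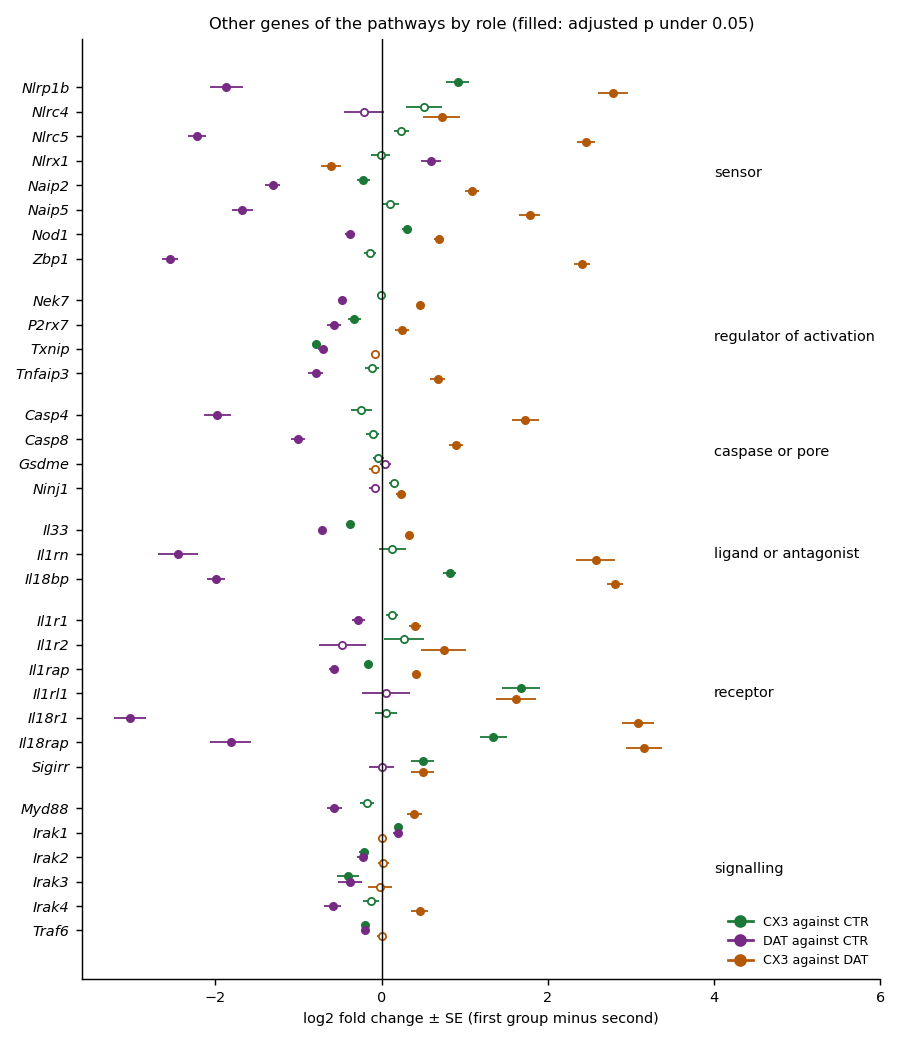
Log2 fold change ± SE of named genes of the pathways, grouped by role, in the 3 comparisons (filled points passed an adjusted p of 0.05). In both comparisons with DAT, Il1rn, Il18bp, Il18r1 and Il18rap lie further from 0 than any signalling gene shown. The sensors shown spread from -2.55 (Zbp1) to 0.59 (Nlrx1) in DAT against CTR, and Nlrp6 is not shown.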

How the data were processed

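Bulk RNA sequencing gave 9 libraries of nigral tissue, 3 per group, grouped by genotype and vector in the labels. The authors deposited whole-number counts per gene without normalization, in 3 columns (both strands and each strand). The notes of the submitters name Trimmomatic, STAR, featureCounts and DESeq2 and build mm10, without versions, and the layout is that of STAR's gene counts. Rows of unassigned reads (30.5 to 35.9% of reads) were left out. The stranded kit is stated, yet strands held equal shares, so counts of both strands were used, and reads in shared exons are lost.

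Counts were scaled by TMM and tested with edgeR 4.0.16 (quasi-likelihood, filterByExpr, all libraries in 1 fit, two-sided, Benjamini-Hochberg over 20892 genes, threshold 0.05) in R 4.3.3, with DESeq2 1.42.0 as an alternative. Code was tested on simulated data. Tables used Python 3.11.15. Genes and lists were chosen with earlier results of these data known. Genes named beyond the 10 were picked by role from a pathway list. Promoter motifs and the scaling to microglial markers were chosen after the values were seen. The transgene was not analysed here.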

Additional observations from a re-analysis of the deposited data

How the results depend on the processing

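In DAT against CTR and CX3 against DAT, 167 and 169 of the 170 log2 fold changes of the 10 genes under alternative settings kept their direction and their side of the threshold, and in CX3 against CTR 149 of 170 did. Against a 1.5-fold change, 0 genes stayed higher and 0 lower in CX3 against CTR. Of the pathway genes 4 were called in CX3 against CTR, 17 in DAT against CTR and 17 in CX3 against DAT. Of all 20892 genes, 173 were called higher and 356 lower in CX3 against CTR under that test. The counts were 1532 and 2241 in DAT against CTR, and 2074 and 1706 in CX3 against DAT. First strand counts left 0 of the 10 lower in CX3 against CTR. Scaling to microglial markers gave 10 higher and 0 lower genes and 42 pathway genes called in CX3 against CTR. Of all 20892 genes, 15185 were then called higher and 498 lower. Casp1 turned to 0.20, Nlrp3 to 0.48 and Pycard to 0.34 with the median of all genes at 0.52. Nlrp3, which was not called, also changed sign with library size alone (0.0064) and with second strand counts (0.12), and ran from -0.15 to 0.0198 with 1 library left out. Leaving out 1 library gave 13 to 18 pathway genes called in CX3 against CTR. Library size alone shifted the median of all genes by -0.15 in DAT against CTR and 0.20 in CX3 against DAT. The cause of these changes was not tested.

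The letters A, B and C in the titles were not used to pair the libraries in the main fit. Deviations of libraries with the same letter correlated at -0.16 to 0.040 across groups. Libraries with different letters were not compared in this way, and whether the letters mark a batch was not tested. With the replicate block, 3 genes were higher and 1 lower in CX3 against CTR, 10 were lower in DAT and 10 higher in CX3 against DAT, and 15, 37 and 37 pathway genes were called. Depth limits Il1b, Nlrp1a and the genes with few reads in DAT most.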
